A study of Rattus norvegicus with 4 samples.

Results

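The data described here concern 3 rat microRNAs (miRNAs): rno-miR-140 and rno-miR-140*, the mature strands cut from the 5′ and the 3′ side of the Mir140 hairpin, and rno-miR-152, which is cut from the 3′ side of the Mir152 hairpin. They were picked by name out of 688 rat miRNA names as miRNAs of connective tissue that appeared flat 2 days after myocardial infarction (MI) and raised at 14 days. The species prefix rno is left out from here on. The differences between MI and sham therefore chose them and are given as a description, without a test. All 3 were measured at day 2, among 348 rat probes. At day 14, miR-140* and miR-152 were measured among 677 rat probes, and miR-140 was not analysed. The late rise named in the choice can thus be described for 2 of the 3 miRNAs.

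RNA was taken from the hearts of male Wistar rats, and the labels give neither their age nor the region of the heart. In the sham groups the chest and the pericardium were opened. In the MI groups the left anterior descending coronary artery (LAD) was tied off as well, which cuts off the blood supply of part of the left ventricle. The 4 groups were sham at day 2, MI at day 2, sham at day 14 and MI at day 14, and for each group the RNA of 3 rats was pooled and run on 1 array. With 1 array per group no difference has a replicate check. The errors printed are standard errors (SE) over a probe's 4 spots on an array, except where another basis is stated. They hold no information on how rats or arrays vary.

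A miRNA is loaded into an Argonaute protein and guides it to messenger RNAs that pair with its seed, bases 2 to 8 of its 5′ end. miR-140 is best known from cartilage, where chondrocytes make it from a hairpin within the gene for the ubiquitin ligase Wwp2. In mice, loss of Mir140 disturbs skeletal growth. miR-152 belongs to the family of miR-148 and miR-152, whose members share a seed and are known to act on the DNA methyltransferase DNMT1. In mammals its hairpin lies within the gene for the coat protein subunit Copz2.

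The mature strands are shown because each of the 3 has a seed of its own. They are written 5′ to 3′ with the seed in capitals, from RefSeq on the GRCr8 rat genome build.
miR-140-5p: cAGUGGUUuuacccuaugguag
miR-140-3p: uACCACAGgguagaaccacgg
miR-152-3p: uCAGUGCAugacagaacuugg
RefSeq's miR-140-5p is the strand that the array names miR-140, its miR-140-3p is the array's miR-140*, and its miR-152-3p is the array's miR-152. The first lies at chr19:52375314-52375335, the second at chr19:52375353-52375373 and the third at chr10:82329435-82329455, all on the plus strand. No other rat miRNA in the table of RefSeq sequences shared the seed of either miR-140 strand.

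The Mir140 hairpin, chr19:52375293-52375391 on the plus strand, is shown because both strands come from one precursor. The mature strands are in capitals, at positions 22 to 43 and 61 to 81 of its 99 bases, with 17 bases between them.
Mir140 hairpin: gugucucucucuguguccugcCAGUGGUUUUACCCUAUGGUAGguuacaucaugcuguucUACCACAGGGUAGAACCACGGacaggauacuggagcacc
Mir140 lies inside the span of Wwp2, chr19:52256563-52380967, and Mir152, chr10:82329383-82329467, lies inside that of Copz2, chr10:82328888-82341959. Each is on the same strand as its host. The annotation used here does not say whether they are exonic or intronic.

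The 2 relatives of miR-152 that share its seed CAGUGCA are shown for comparison with it, since their probes are read further on.
miR-148a-3p: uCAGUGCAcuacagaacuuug
miR-148b-3p: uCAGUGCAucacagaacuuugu
The first lies at chr4:81664447-81664467 on the minus strand and the second at chr7:136299930-136299951 on the plus strand. Counting from the 5′ end of miR-152-3p, miR-148a-3p carries U9C, G10U and G20U and is identical at 18 of 21 positions. miR-148b-3p carries G10C and G20U and is identical at 19 of 21 positions. How far RNA of one family member binds the probe of another was not tested. The member probes also carry human and mouse names, hsa-miR-140-5p, hsa-miR-140-3p and hsa-miR-152 and their mouse counterparts.

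The measure is the fluorescence of Hy3-labelled RNA. A spot was taken as detected where its foreground exceeded the local background by 2 background SDs, and a probe where at least 50% of its spots did. At day 2, 166 rat probes were detected in the sham pool, 199 in the MI pool and 147 in both. At day 14 the corresponding counts were 173, 214 and 157. The median difference, MI minus sham, over the probes detected in both pools was 0.09 on the log2 scale at day 2 and 0.24 at day 14. The day 2 sham array stood apart: the median SD over the spots of a probe was 0.67 (log2) there and 0.16 for the MI pool of that day. The values at day 14 were 0.12 for sham and 0.071 for MI. On the day 2 sham array, spot set 4, 1 of the 4 printed copies of the probes, had a median deviation of -1.16 on the log2 scale. The deviation is taken from the median of a probe's 4 spots, set 4 included. The median background of set 4 was 526, against 278 to 348 in the other sets of that array. The image name of that array also starts with the prefix mmu, while the labels and the other 3 image names give rat. In the scanner's other colour channel, in which no labelled RNA was read, 0 of 4 spots of every member were detected on every array.

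At day 2 all 3 members lay lower in the MI pool than in the sham pool by their means, by less than 2-fold. Only miR-140 did so with no overlap between spots. Among the 187 rat miRNAs with a fold at day 2, 5.35% reached 2-fold in either direction, 4.28% with MI higher and 1.07% with MI lower, and the 3 members were not among them. As these differences chose the members, nothing is read from that count.

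miR-140, the 5′ strand of the hairpin, gave net intensities (foreground minus local background) of 2130.5, 2534.5, 2148 and 2260 in sham spot sets 1 to 4 and of 1482.5, 1627, 1588 and 1141.5 in the MI sets. All 4 MI spots were dimmer than all 4 sham spots. After normalization the mean log2 intensity was 11.32 (spot SD 0.10) in sham and 10.85 (spot SD 0.19) in MI. The difference was -0.46 (SE 0.11), which is 1.38-fold higher in sham, and it was below 0 in 4 of 4 sets. It ranked 16 from the lowest among the 147 probes detected in both pools. Non-overlapping spots with MI lower were found for 14.3% of those 147 probes and with MI higher for 6.12%.

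miR-140*, the 3′ strand, gave net intensities of 3557, 3606, 4319 and 1710 in the sham sets and of 1672, 2755, 3297.5 and 2975 in the MI sets. The dimmest sham spot was that of set 4, and the dimmest MI spot that of set 1. The spots of the pools overlapped. The means were 11.67 (spot SD 0.52) in sham and 11.58 (spot SD 0.39) in MI, a difference of -0.09 (SE 0.32), smaller than the spread of the spots. MI was the higher pool in set 4 only, by 0.85, and the differences in sets 1 to 3 were -0.80, -0.21 and -0.18.

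miR-152 gave net intensities of 3655, 3760, 3841 and 1823 in the sham sets and of 1793, 2279, 2630 and 2806 in the MI sets. As with miR-140*, sham set 4 lay far below the other sham spots, and the pools overlapped through it. The means were 11.69 (spot SD 0.45) in sham and 11.43 (spot SD 0.25) in MI. The difference of -0.26 (SE 0.26) was about the size of its own error. The set differences were -0.75, -0.55 and -0.39 in sets 1 to 3 and 0.65 in set 4.

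**Figure D1:**
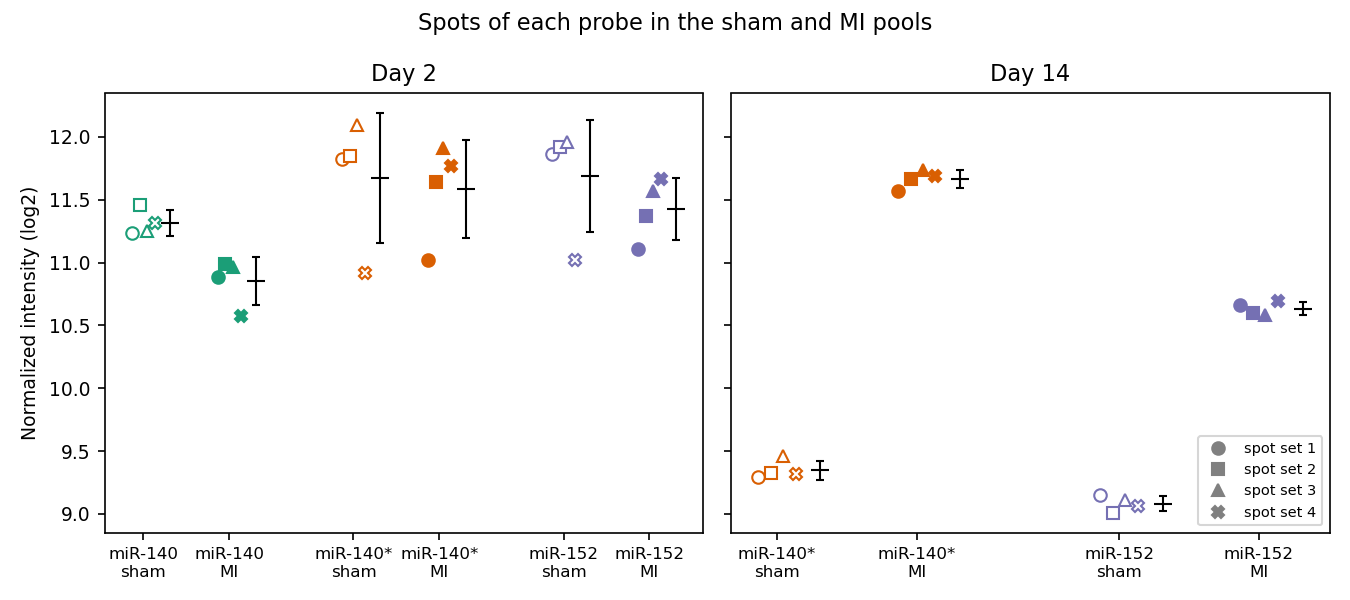
Normalized log2 intensity (y axis) of every spot of the 3 probes in the sham pools (open symbols) and MI pools (filled symbols) at day 2 (left) and day 14 (right). Symbol shapes mark the 4 spot sets, and black bars give the mean and SD over the spots of 1 array. At day 2 the open cross of sham set 4 lies near 11 for miR-140* and miR-152, below their other sham spots. At day 14 the sham and MI spots lie clear of each other.

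The day 2 differences of miR-140* and miR-152 moved with single spot sets. Without set 1 that of miR-140* was 0.15 and that of miR-152 was -0.10. Over sets 1 to 3, leaving out set 4, the differences were -0.37 (SE 0.079) for miR-140, -0.40 (SE 0.28) for miR-140* and -0.56 (SE 0.14) for miR-152. These SEs are over the spots of sets 1 to 3. The median of all probes detected in both pools moved with them, from 0.09 to -0.31. Relative to that median the differences were -0.06, -0.09 and -0.25. Over sets 1 to 3 the spots of miR-152 ran from 11.86 to 11.96 in sham and from 11.11 to 11.57 in MI. Those of miR-140* ran from 11.82 to 12.09 in sham and from 11.02 to 11.91 in MI. The share of all probes with no overlap over sets 1 to 3 was not counted, so nothing is read from the gap of miR-152. The sham spots of miR-140* and miR-152 in set 4 lie in a printing block with a median background of 350 and a median deviation of -0.22. The sham spot of miR-140 lies in the next block, with values of 326 and -0.015.

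Whether the miR-140 strands differed from each other at day 2 could not be settled from these spots. The difference of miR-140 minus that of miR-140* was -0.38 (SE 0.43) over 4 sets and 0.03 (SE 0.22) over sets 1 to 3. Here the SE was taken over the differences of the sets, each MI spot being set against the sham spot of its set. Both values were smaller than that SE.

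**Figure D2:**
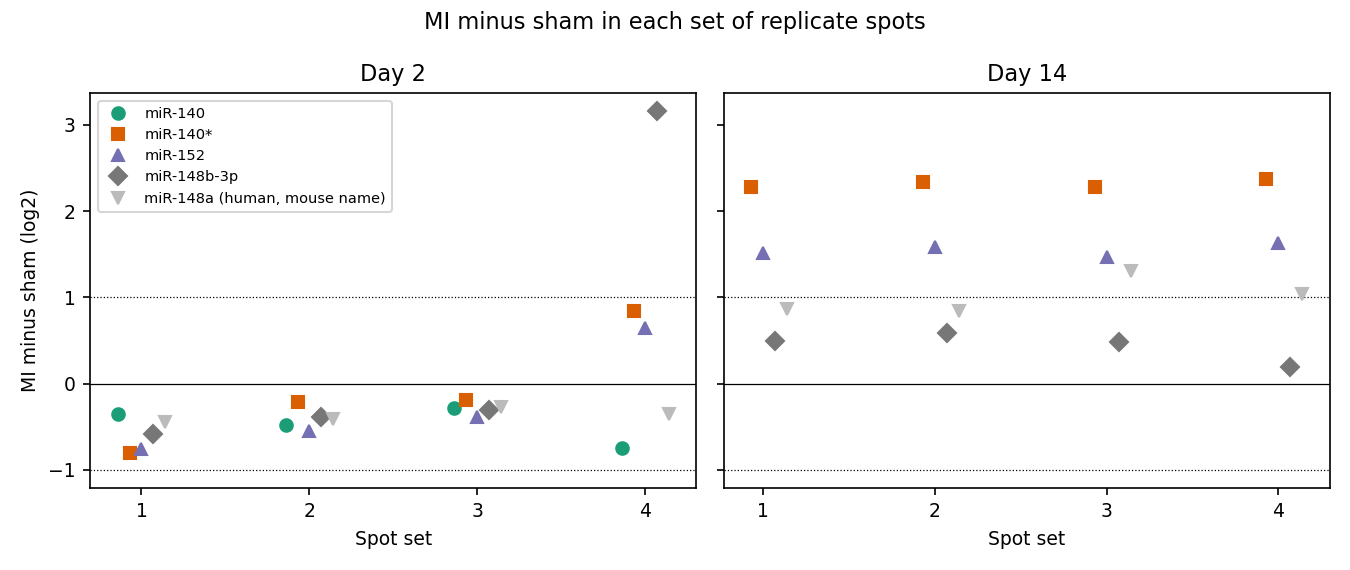
Difference between the MI and sham spot of each set (y axis, log2) for the 3 members and the miR-148 probes at day 2 (left) and day 14 (right), with spot sets 1 to 4 on the x axis. Dotted lines mark 2-fold. At day 2, miR-140*, miR-152 and miR-148b-3p are below 0 in sets 1 to 3 and above 0 in set 4, and at day 14 miR-140* and miR-152 are above the upper line in all 4 sets.

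At day 14, miR-140* and miR-152 were higher in the MI pool, 4.98-fold and 2.93-fold. Among the 230 rat miRNAs with a fold at day 14, 14.3% reached 2-fold in either direction, 10.9% with MI higher and 3.48% with MI lower. Both members were among those with MI higher, by their choice. miR-140, the other strand of the miR-140 hairpin, has no value to set beside miR-140* at this time.

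miR-140* gave net intensities of 430, 444, 497 and 440.5 in the sham sets and of 3747, 3923, 4052 and 3983.5 in the MI sets. Every MI spot was far above every sham spot, and the 4 spots of each pool were close together. In sham, 3 of its 4 spots were detected. The mean was 9.35 (spot SD 0.077) in sham and 11.66 (spot SD 0.070) in MI, a difference of 2.32 (SE 0.052) that ranked 5 from the highest of 157 probes. The set differences ran from 2.28 to 2.37.

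miR-152 gave net intensities of 383.5, 343, 372 and 356 in the sham sets and of 1775, 1688, 1655 and 1822 in the MI sets. The pools were again far apart, with all spots detected. The means were 9.08 (spot SD 0.061) in sham and 10.63 (spot SD 0.052) in MI. The difference of 1.55 (SE 0.040) ranked 9 from the highest of 157, and the set differences ran from 1.47 to 1.63. Non-overlapping spots with MI higher, as both members had, were found for 45.2% of the 157 probes and with MI lower for 18.5%. On these arrays that criterion was met by many probes.

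Relative to the median of the probes detected in both pools, the day 14 differences were 2.08 for miR-140* and 1.31 for miR-152. Under the main processing and 17 alternatives, the relative difference ran from 2.03 to 2.35 for miR-140* and from 1.27 to 1.53 for miR-152, and was past 2-fold in 18 of 18 for each. The alternatives reprocess the same pair of arrays and are not independent checks. Without normalization, with centring and with the spike-in shift the relative values were identical by construction (2.35 and 1.47). In the authors' deposited table, MI minus sham was 2.17 for miR-140* and 1.35 for miR-152 at day 14. The same table gave -0.90 for miR-140, -0.35 for miR-140* and -0.51 for miR-152 at day 2.

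**Figure D3:**
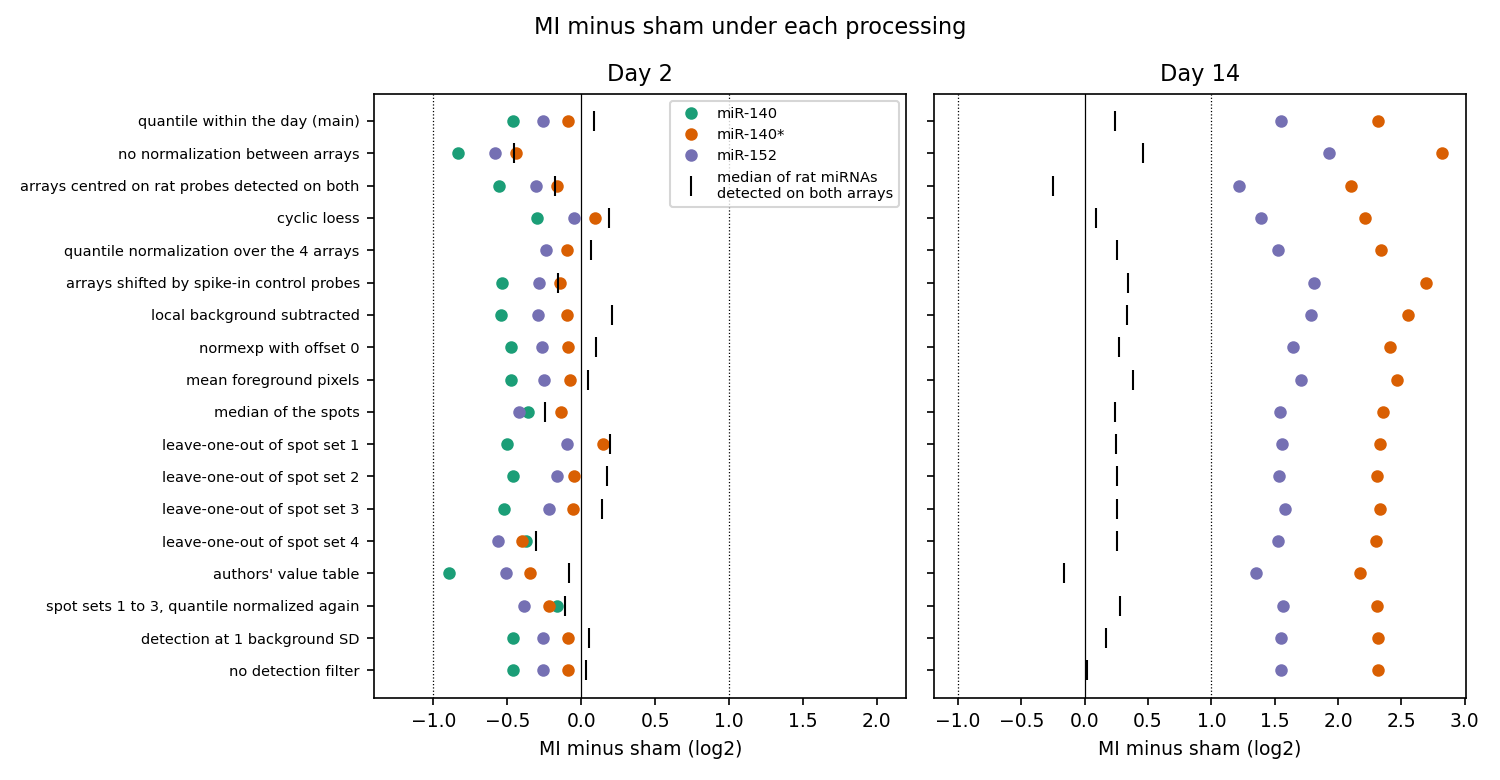
MI minus sham (x axis, log2) of the members under the main processing and each alternative (y axis) at day 2 (left) and day 14 (right). Black ticks give the median over rat miRNAs detected on both arrays, and dotted lines mark 2-fold. At day 14 both members stay to the right of the 2-fold line, and at day 2 all 3 stay within the 2-fold lines, with miR-140* on either side of 0.

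Of the 130 rat miRNA names with a fold on both days, 15, or 11.5%, had a day 2 value or bound under 2-fold and were at least 2-fold higher at day 14. Ordered by their day 14 value, these were miR-199a-5p, miR-214, miR-140*, miR-199a-3p, miR-152, miR-34c, miR-142-5p, miR-335, miR-195, miR-34a, miR-301a, miR-27b, miR-221, miR-33 and miR-542-3p. For miR-199a-5p, miR-34c, miR-142-5p, miR-27b and miR-33 the probe number differed between the arrays of the days, so their values come from different probes. The day 14 values of miR-34c, miR-142-5p, miR-335 and miR-221 and the day 2 values of miR-34c and miR-33 are lower bounds, as the probe was detected in the MI pool alone. A lower bound does not show that a difference was under 2-fold. Among the 115 of these names detected in both pools at day 2, 13, or 11.3%, had the pattern, miR-34c and miR-33 being left out. Just inside the 2-fold line at day 14 were miR-221 (1.02, a bound), miR-33 (1.02) and miR-542-3p (1.01), and just outside it was miR-99b at 0.99. A day 2 value below 0 together with a 2-fold higher day 14 value was found for 4 of the 130, or 3.08%, namely miR-140*, miR-152, miR-199a-3p and miR-335. The members were chosen for this pattern, so the shares are a description.

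The nearest names were taken by straight-line distance in the plane of the day 2 and day 14 differences, over the 91 rat miRNAs detected on all 4 arrays. That measure rests on 2 differences from 4 pools, and miR-140 has only one of them. Nearest to miR-140* was miR-199a-3p at a distance of 0.28, with -0.25 at day 2 and 2.10 at day 14. It was followed by miR-214 (0.63), miR-152 (0.79), miR-199a-5p (1.17) and miR-195 (1.27). The day 2 values in these distances depend on spot set 4. Without it miR-195 was at -0.22 against 0.69, miR-199a-5p at -0.34 against 0.28 and miR-140* at -0.40 against -0.09. For miR-152 the nearest was again miR-199a-3p (0.55), followed by miR-23b (0.64), miR-99b (0.67), miR-151 (0.69) and miR-106b (0.71). The neighbours of miR-152 other than miR-199a-3p had day 14 differences of 0.87 to 0.99 in the main processing, below 2-fold and below the 1.55 of miR-152. That side of the 2-fold line depended on the processing. Main processing counted, miR-151 was at least 2-fold higher in 10 of 18, miR-99b in 8 of 18 and miR-106b in 3 of 18. For miR-23b it was 2 of 17, and for miR-152 18 of 18.

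**Figure D4:**
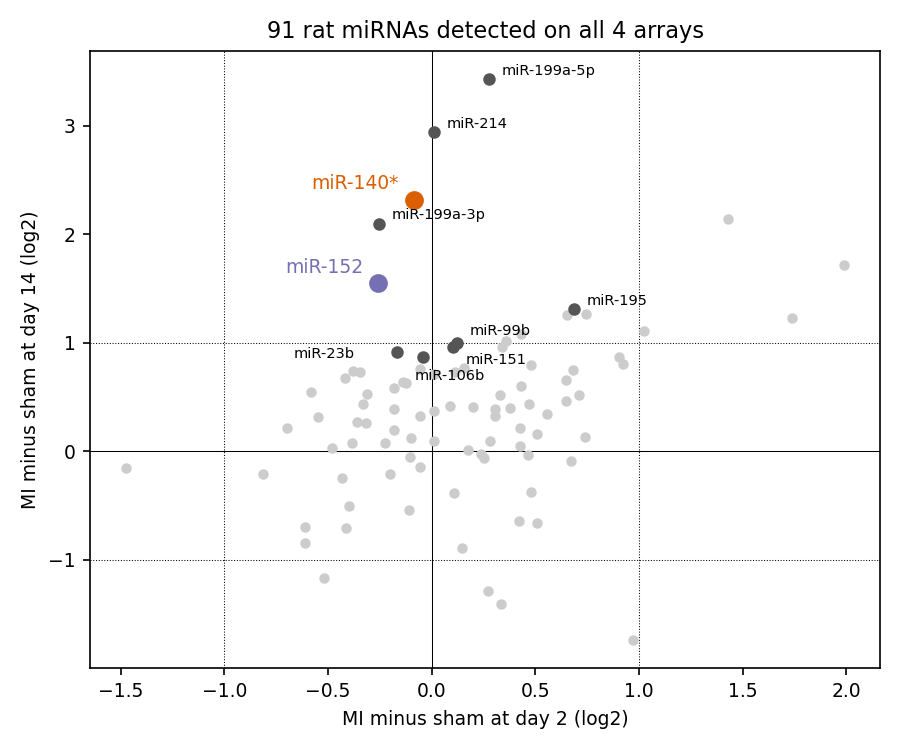
MI minus sham at day 2 (x axis, log2) against day 14 (y axis, log2) for the 91 rat miRNAs detected on all 4 arrays, with the members in colour and their nearest names in dark grey. Dotted lines mark 2-fold. miR-140* and miR-152 lie just left of 0 on the x axis and above 1 on the y axis, near miR-199a-3p.

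Of the relatives of miR-152 with the same seed, miR-148b-3p had a smaller difference at day 14, and the miR-148a probe had only a lower bound. miR-148b-3p, on a probe also named for human and mouse, had median net intensities of 115.5 in sham and 215.75 in MI at day 14. It was higher in MI in 4 of 4 sets. The difference was 0.44 (SE 0.073), or 1.35-fold, and turned to -0.27 when the arrays were centred on the rat probes detected on both. With that centring the median of the probes detected in both pools was -0.25. The miR-148a probe, which carries human and mouse names only, was detected in MI (3 of 4 spots) and not in sham (0 of 4), at median net intensities of 125 and 2.5. It was at least 1.27-fold higher in MI, counting sham at the lowest detected level where that was the higher. Its measured means differed by 1.01. The opposite strand miR-152* was not detected at day 14 in either pool, nor were miR-148b-5p and the miR-148a* and miR-148b* probes.

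At day 2 the miR-148a probe was lower in MI by its mean, with a difference of -0.37 (SE 0.12) and 4 of 4 sets below 0. miR-148b-3p had a difference of 0.47 (SE 0.90) that rested on set 4, where MI exceeded sham by 3.15. Its differences in sets 1 to 3 were -0.58, -0.39 and -0.31, and without set 4 its value was -0.43, where the median of the probes detected in both pools was -0.31. In sham, 3 of its 4 spots were detected.

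Of a list of miRNAs of connective tissue and cartilage, 14 had a fold at day 14. There 7 were at least 2-fold higher in MI and 0 at least 2-fold lower, with 5 below 0 and a median of 0.95, against 10.9% of the 230 rat miRNAs with a fold at least 2-fold higher and a median of 0.24 over the 157 probes detected in both pools. miR-140* and miR-152, chosen for this difference, are in that count. Without the members 5 of 12 were at least 2-fold higher and the median was 0.41. The 7 were miR-140*, miR-152, miR-199a-5p (3.43), miR-199a-3p (2.10), miR-214 (2.94), miR-21 (3.45) and miR-27b (1.08). The last of these was under 2-fold with 2 of the alternatives. miR-29a, miR-29b and miR-29c, which target collagen messages, were at 0.02, -0.37 and -0.64, and the smooth muscle miRNAs miR-143 and miR-145 at 0.81 and -0.15. miR-22 was at -0.03. The signs of miR-29a, miR-29b, miR-145 and miR-22 changed with the scaling. miR-455, another miRNA of cartilage, was detected in sham only, in 2 of 4 spots, at a bound of -0.35. At day 2, 12 of the list had a fold, with 1 at least 2-fold higher (miR-21, 1.44, a lower bound because its MI spots were saturated), 5 below 0 and a median of 0.01, or 0.28 without the members.

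The labelled tissue was checked against marker miRNAs. All 5 heart muscle markers measured were detected on every array. Of 11 markers of other tissues, 6 at day 2 and 8 at day 14 were not detected. Of the others, skeletal muscle miR-206 was detected in 4 of 4 spots on every array. Its day 2 sham mean of 13.33 lay near those of the heart muscle markers miR-133b (13.28) and miR-499 (13.31). At day 2 miR-9 and miR-203 were detected in both pools, and miR-122 and miR-375 in MI only. At day 14 miR-9 and miR-205 were detected in MI only. At day 14 the heart muscle list and part of the fibroblast and smooth muscle list also differed between the pools. The heart muscle markers ran from -1.42 to -0.66, with 5 of 5 below 0 and 4 at least 2-fold lower. Without normalization or with the spike-in shift 0 were at least 2-fold lower, at list medians of -0.84 and -0.96. The median of the probes detected in both pools was then 0.46 and 0.34, against 0.24 in the main processing. The summed intensity of the heart muscle markers was 40201 in sham and 16427 in MI. The fibroblast and smooth muscle markers ran from -0.15 to 3.43, with 3 of 5 at least 2-fold higher, and their summed intensity was 16572 in sham and 42263 in MI, 2.55-fold higher. All 5 are also in the connective tissue list above, so the lists are not separate evidence. The 3 were miR-199a-5p, miR-199a-3p and miR-214, which are also among the nearest names of miR-140*. miR-143 (0.81) and miR-145 (-0.15) did not reach 2-fold. In the day 14 sham pool miR-143 had a mean of 13.70, against 9.59 to 9.83 for the other markers of its list. It therefore made up most of the summed intensity of that list in sham. The part of the shifts of these lists in the values of miR-140* and miR-152 was not tested. In pooled tissue RNA, fewer cells of a type and less RNA per cell cannot be told apart.

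At day 2, when the members differed by less than 2-fold, 0 of the 4 fibroblast and smooth muscle markers with a fold was 2-fold apart, and they ran from -0.25 to 0.28. Of the 5 heart muscle markers 3 were saturated on 1 or both arrays and had no fold. The other 2, miR-133b and miR-499, stood at 0.33 and 0.51, values that were below 0 when set 4 was left out and that ran from -0.02 to 0.14 without normalization. The median of the probes detected in both pools moved as well, from 0.09 to -0.31 without set 4 and to -0.46 without normalization. Of the 4 leukocyte markers 2 were at least 2-fold higher in MI, at a ratio of summed intensities of 2.94. That count was 1 without set 4 or with the median of the spots, and 4 with cyclic loess. At day 14, 3 leukocyte markers were at least 2-fold higher and 1 lower, at a ratio of 1.34. The endothelial markers were at -0.39 and -0.29 at day 14, and from -0.01 to 0.05 without normalization, where the median of the probes detected in both pools was 0.46. The erythroid markers gave summed ratios of 1.19 at day 2 and 1.04 at day 14.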

How the data were processed

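Per the labels, total RNA (1 µg at day 2, 500 ng at day 14) was labelled with Hy3 and hybridized to miRCURY LNA arrays. Per the file headers, these were version 11.0 (miRBase 12.0) at day 2 and the 6th generation (miRBase 16.0) at day 14, read with Mapix 4.5.0 at 5 µm. miR-140* and miR-152 had the same probe numbers on both. The deposited scanner files give foreground and background intensity per spot, not normalized. The deposited value table holds the authors' log2 values per array, and its background correction and centring are not given in the sources used here. Its column medians were 6.36, 6.36, 4.70 and 4.70, and against log2 scanner values its slopes were 1.12 to 1.25.

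Groups came from the titles, since all 4 samples carry identical treatment text. Median foreground was corrected with normexp (offset 50) against the local median background, and the pair of arrays of a day was quantile normalized with limma 3.58.1 in R 4.3.3. Log2 values were averaged over the 4 spots. Levels of different days were not set against each other. A probe detected on 1 array has a bound, and a probe saturated on an array (65535) has no fold unless the other array allows a bound. Differences of at least 1 on the log2 scale (2-fold) are a rule of size with no error rate. The number of arrays limits the precision. The scripts were tested on simulated data. Both simulated arrays had the spot SD of the MI array, with equal numbers of planted rises and falls. That test therefore does not cover the wider spread of the day 2 sham array or an uneven split of changes.

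The members, the lists and the tests were chosen with earlier results of these data known. The miRNAs named are the members, every probe of the same name or seed family, the connective tissue list and the 5 nearest names of each member. Tissue markers are described by list, except the 2 heart muscle markers with a fold at day 2 and the detected markers of other tissues. Names with the pattern of the members are listed. All of these were named after their values were seen.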

Additional observations from a re-analysis of the deposited data

Results flagged for a closer look

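miR-140* was below 0 at day 2 (-0.09) and above 0 at day 14 (2.32), and miR-152 likewise (-0.26 and 1.55), which are opposite signs. The day 2 values were no larger than about their spot SE (0.32 and 0.26), and that of miR-140* was above 0 with cyclic loess and without spot set 1, so no side of sham is established at day 2. The difference between the days was not tested, since each group is 1 array and the days used different array generations.

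The miR-148a probe, named for human and mouse and not for rat, gave a median net intensity of 125 in the day 14 MI pool and 2.5 in the day 14 sham pool. It lies outside the rat probes of the comparisons.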

How the results depend on the processing

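At day 2, miR-140 was below 0 under 16 of 16 alternatives (-0.90 to -0.17) and miR-152 under 17 of 17 (-0.58 to -0.05). miR-140* was below 0 under 15 of 17, and above 0 with cyclic loess (0.09) and without spot set 1 (0.15). The alternatives that change only the detection rule, a lower limit or no filter, repeat a member's main difference by construction. They are counted in these totals and in those of day 14. Relative to the median of the probes detected in both pools, main processing counted, miR-140 ran from -0.81 to -0.05, below 0 in 17 of 17. miR-152 ran from -0.50 to -0.13, below 0 in 18 of 18. miR-140* ran from -0.30 to 0.11, below 0 in 14 of 18. On that scale it was above 0 without normalization, with centring and with the spike-in shift (0.01 each), and with the median of the spots (0.11). miR-140 moved by more than its spot spread without normalization (-0.84), in the authors' table (-0.90) and over sets 1 to 3 quantile normalized again, an alternative chosen after seeing the data (-0.17). Relative to the same median these values of miR-140 were -0.38, -0.81 and -0.05, against -0.55 in the main processing. At day 14, with the same pair of arrays reprocessed each time, miR-140* and miR-152 kept their direction and stayed past 2-fold under all 17 alternatives. They moved by more than the spot spread without normalization (2.82 and 1.93), centred on rat probes detected on both arrays (2.10 and 1.22), with cyclic loess (2.21 and 1.39), shifted by spike-in probes (2.69 and 1.81), with local background subtracted (2.55 and 1.79), with mean pixels (2.47 and 1.71) and in the authors' table (2.17 and 1.35), and miR-152 also with normexp offset 0 (1.64). Leaving out 1 spot set gave -0.52 to -0.37 for miR-140, -0.40 to 0.15 for miR-140* and -0.56 to -0.10 for miR-152 at day 2, and 2.30 to 2.33 and 1.52 to 1.58 for miR-140* and miR-152 at day 14.

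The count of rat miRNAs at least 2-fold apart at day 2 was 10 (8 higher, 2 lower). It was 27 without normalization (4 and 23), 6 after quantile normalizing the 4 arrays jointly (5 and 1), 56 with local background subtracted (48 and 8), 16 with normexp offset 0 (14 and 2), 6 with the median of the spots (3 and 3), 44 in the authors' table (25 and 19) and 4 to 18 without 1 spot set, the 4 being without set 4. At day 14 it was 33 (25 and 8), against 73 with local background subtracted (59 and 14) and 67 in the authors' table (39 and 28). The split at day 14 was 40 and 1 without normalization, 15 and 29 with centring, 20 and 13 with cyclic loess and 35 and 3 with the spike-in shift. At day 2 it was 5 and 10 with centring and with the spike-in shift, and 12 and 1 with cyclic loess. The cause of these shifts was not tested. miR-140 could not be given over the 4 arrays, and the slide could not be a block, since each array is its own slide. No paired analysis was possible because each group is 1 array. The day 2 sham array, with its spot SD of 0.67, limits what the day 2 values can show.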
